A study of Mus musculus with 54 samples.

Results

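The cells described here are bone marrow progenitors of mice that were selected by their own transcripts, chiefly Apoe and Gata2, and compared between a Cebpa knockout and its control. A cell was a member when it came from a well with 1 cell, had at least 500 unique molecular identifiers (UMIs, each counting 1 captured mRNA molecule), and carried at least 3 UMIs of Apoe and Gata2 together. It also had at most 3 UMIs of Pf4, at most 2 of Prss34 and Mcpt8 together, and less than 0.2% of its UMIs from Car1 and from Elane. These rules gave 311 cells of the 8399 kept in the whole series: 191 of 1384 kept cells in 12 knockout pools and 120 of 890 in 6 control pools. A pool is an amplification pool of 192 wells, a plate holds a pair of pools, and pools are the samples that the tests compare.

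Cells were profiled with MARS-seq, which sorts single cells into wells, tags the 3' ends of their mRNA with a well barcode and a UMI, and amplifies the wells together. All cells were sorted as Lin- cKit+ Sca1-, the fraction of marrow that holds the committed myeloid and erythroid progenitors. The knockout pools of sequencing batch SB29 (8 pools) carry the strain label C57BL/6 Cebpa(flox/flox)Mx1-Cre, the treatment label poly(I:C) and an age of 6 to 8 weeks. The control pools of SB29 (4 pools) share that age and treatment; the strain label reads C57BL/6 Cebpa(flox/flox) on plate 27 but names Mx1-Cre on plate 26. Mx1-Cre is a recombinase gene switched on by interferon, and poly(I:C) is the double-stranded RNA mimic used to induce it, so the deletion reaches many interferon-responsive cells and not myeloid progenitors alone. The authors' table gives 1 mouse identifier to all knockout pools and another to all control pools, so the p-values below measure the spread between pools, which may be technical. Genotype and animal cannot be told apart.

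Cebpa encodes C/EBP alpha, a transcription factor that drives progenitors into the neutrophil and monocyte lineages and switches on primary granule genes. Apoe and Gata2 mark early progenitors on the erythroid, megakaryocyte and basophil side: Gata2 is a transcription factor of stem cells and early progenitors, and Apoe is a lipid carrier protein. Limits were set on Car1 (an erythroid carbonic anhydrase), Pf4 (a platelet chemokine), Prss34 and Mcpt8 (basophil proteases) and Elane (a neutrophil protease). They left out cells with high levels of these transcripts, but members could still carry some. Only 44 of 191 knockout members and 56 of 120 control members had no Car1 UMI.

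Several facts about the pools came before the results. For the 12 pools of SB29 the sample label and the authors' table name the same group. For the 6 pools of SB23 they do not: knockout pools 1 and 2 and both control pools are labelled as a Cebpe knockout of 14 weeks, and knockout pools 3 and 4 as a Flt3+ Csf1r+ gate of common myeloid progenitors from wild-type mice of 6 to 8 weeks. These 6 pools hold 86 of the 311 members and were grouped by the authors' table. Levels are given as CPM, the UMIs of a gene per 1000000 UMIs of the cells summed. Over all kept cells Cebpa was at 1.14 and 5.64 CPM on the SB23 knockout plates, against 103 on the SB23 control plate. Control plates 14 and 27 also stood apart from every other plate of the comparison in genes that all cells use. Eef1a1, a translation elongation factor, was at 3351 to 5031 CPM on the 6 knockout plates, against 540 on control plate 14, 2401 on control plate 26 and 139 on control plate 27. The 6 plates of unsorted progenitors from 1 wild-type mouse spanned 427 to 3275 for the same gene, a 7.67-fold range. Knockout plates also differed among themselves in such genes. Rpl22, a ribosomal gene, was at 330 CPM on plate 22 and 435 on plate 25, against 2112 on plate 17 and 2737 on plate 12. Plate 27 holds 64 of the 120 control members and 49.1% of their UMIs, and over all its cells Car1 was at 579 CPM, against 4343 on plate 26. Other erythroid genes were not low there: Klf1 was at 646 CPM on plate 27 and 563 on plate 26, and alpha globin Hba-a2 at 1082 and 395. The Car1 limit may thus have passed more erythroid cells as members on plate 27, which was not tested. The counts of called genes and the leading values are therefore also given without plate 27, an alternative chosen after the data were seen.

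**Figure D1:**
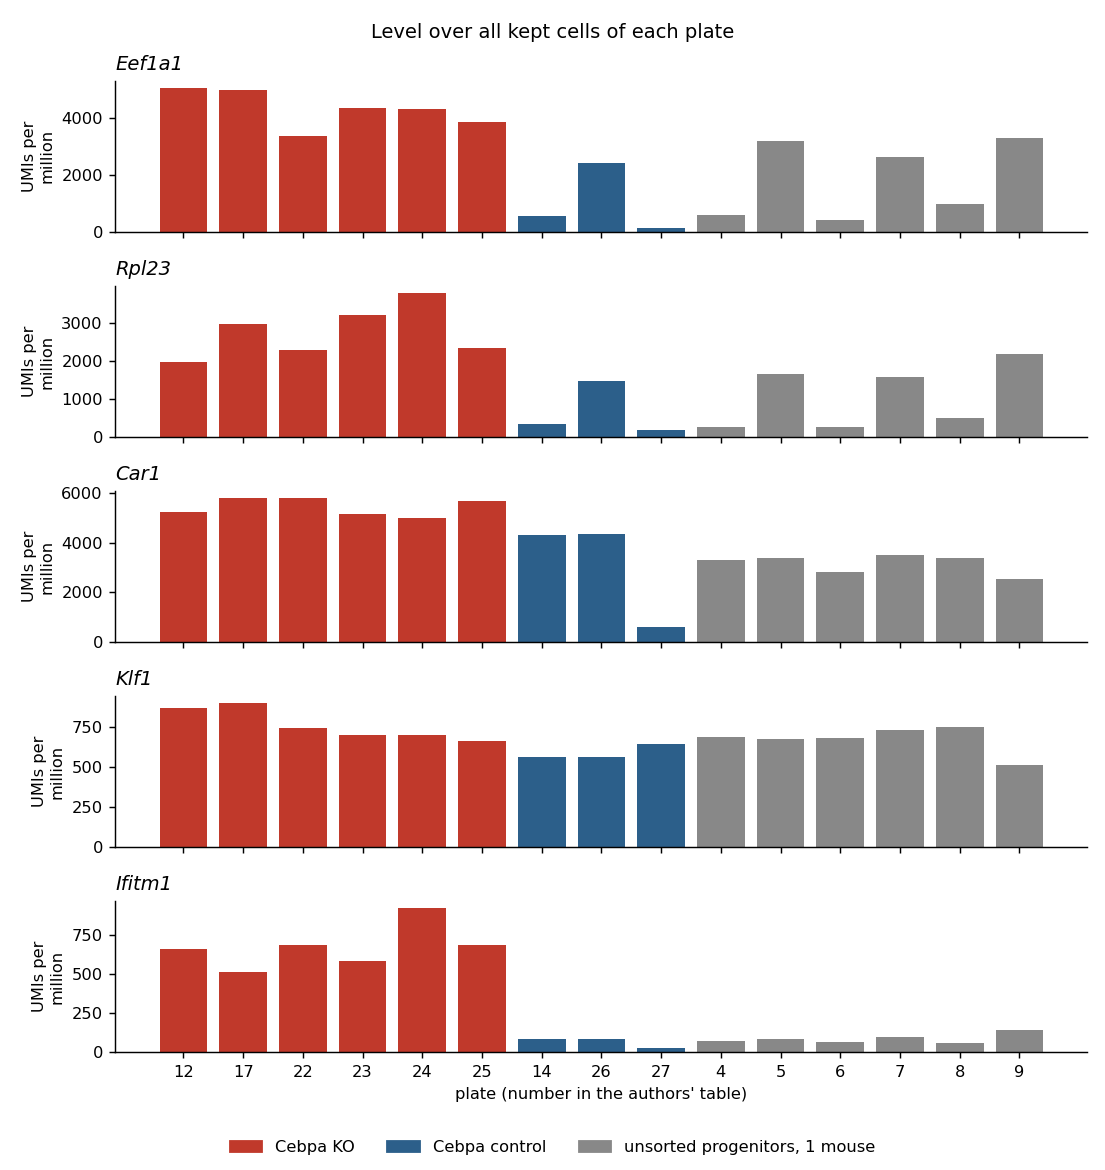
Level of 5 genes (CPM, vertical axis, each panel from 0) over all kept cells of each plate: 6 Cebpa knockout plates in red, 3 Cebpa control plates in blue and 6 plates of unsorted progenitors from 1 mouse in grey. Eef1a1 and Rpl23 are low on control plates 14 and 27 and also on some unsorted plates, Car1 is low on plate 27 (579), and Ifitm1 is higher on the knockout plates than on any other plate.

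The plot of levels by plate shows why this alternative is needed: the ribosomal and elongation genes vary several-fold between plates of a single wild-type mouse, while Klf1, an erythroid transcription factor, varied 1.47-fold over the same unsorted plates. Of the 630 genes tested within the members, 12 (1.90%) spanned at least 4-fold between the unsorted plates. They made up 9 of the 49 genes called higher in knockout members outside the gate genes and 0 of the 34 called lower. What set these plate differences was not tested.

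The depth behind the values was modest. The members held 359223 UMIs in knockout pools, with a median of 1491 UMIs and 962 genes per cell, and 273487 in control pools, with a median of 1830 UMIs per cell. A knockout pool contributed 8 to 35 members and 15357 to 60246 UMIs, and a control pool 10 to 42 members and 14103 to 94703 UMIs. The pool medians of UMIs per member averaged 1728 in the knockout and 1668 in the control (exact two-sided permutation of genotype within batches, p = 0.785). Near the limit of the rule, 45 knockout and 25 control members had exactly 3 UMIs of Apoe and Gata2, and 61 knockout and 50 control cells met every other limit but had 2. The median member had 5 such UMIs in both genotypes.

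The genes of the rule describe the members and were not tested. Apoe averaged 2462 ± 767 CPM in knockout members and 2457 ± 700 in control members (SD, n = 12 and 6 pools), and Gata2 averaged 781 ± 477 in the knockout and 535 ± 152 in the control. Car1, capped by the rule, averaged 913 ± 167 in the knockout and 556 ± 243 in the control. Elane, capped likewise, had 27 UMIs in all knockout members and 87 in all control members. The label of early progenitors was checked against markers of other lineages that the rule did not use. Of 6 lymphoid and NK markers, Il7r, Cd79a, Cd3e, Gzma and Klrd1 had 0 UMIs in both genotypes, and Dntt, a DNA polymerase of lymphoid precursors, had 21 in knockout members and 16 in control members. Of 5 megakaryocyte markers outside the rule, the platelet chemokine Ppbp had 0 UMIs in both genotypes and the others were detected. Itga2b had 79 UMIs in knockout members and 42 in control members (220 and 154 CPM). Gp9 had 35 in knockout members and 18 in control members (97.4 and 65.8 CPM). Gp1bb had 31 in knockout members and 11 in control members, and Vwf went the other way, with 3 and 5. Basophil and mast cell markers outside the rule had 4 UMIs in knockout members and 0 in control members. The 6 erythroid markers outside the rule were all detected in both genotypes, with 334 UMIs in knockout members and 510 in control members. Their sum reached 1225 CPM in a knockout pool and 3738 in a control pool, so members were not free of erythroid transcripts. The 5 monocyte markers had 14 UMIs in knockout members and 58 in control members, and the 4 dendritic markers 14 and 33. The neutrophil markers Mpo, Prtn3 and Ctsg summed to 68.7 to 1982 in knockout pools and 2252 to 5072 in control pools, so control members carried granule transcripts in every pool.

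Cebpa itself was nearly absent from knockout members. They held 2 Cebpa UMIs, with 10 of 12 pools at 0 and the other pools at 33.4 and 38.1 CPM. Control members held 29, and their pools had a lowest value of 52.8, a median of 119.6 and a highest of 284 CPM. The pools of the 2 genotypes did not overlap (exact permutation within batches, p = 0.000135, the smallest that 7425 arrangements allow; p = 0.00148 without plate 27). The log2 ratio of the summed levels was -4.25, with a 95% interval from -7.36 to -2.27 that covers counting error only. Cebpa was too sparse to pass the expression filter of the gene-wise test.

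The share of kept cells that met the rule was not distinguishable between genotypes. It averaged 14.5 ± 4.79% in knockout pools (8.15 to 22.5%) and 14.9 ± 11.6% in control pools (5.99 to 36.5%; SD, n = 12 and 6), a difference of -0.44 percentage points (exact permutation, p = 0.909). The control pools of plate 27 were the highest of their group. Without them the control averaged 8.53 ± 3.07%, and the difference was 5.22 points (p = 0.0385). With every cell thinned to 1000 UMIs the shares were 7.61% in the knockout and 6.61% in the control (p = 0.491). Cells with Car1 at 0.2% of UMIs or more that met the limits on Pf4, Prss34 and Mcpt8, and Elane, with no limit on Apoe and Gata2, are called Car1-high cells below. They took 61.6% of kept cells in knockout pools and 34.1% in control pools (p = 0.000404). Without plate 27 the control share of Car1-high cells was 48.3% (p = 0.00444). All are shares of sorted cells of a pool, so a class with fewer cells raises the shares of the others.

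**Figure D2:**
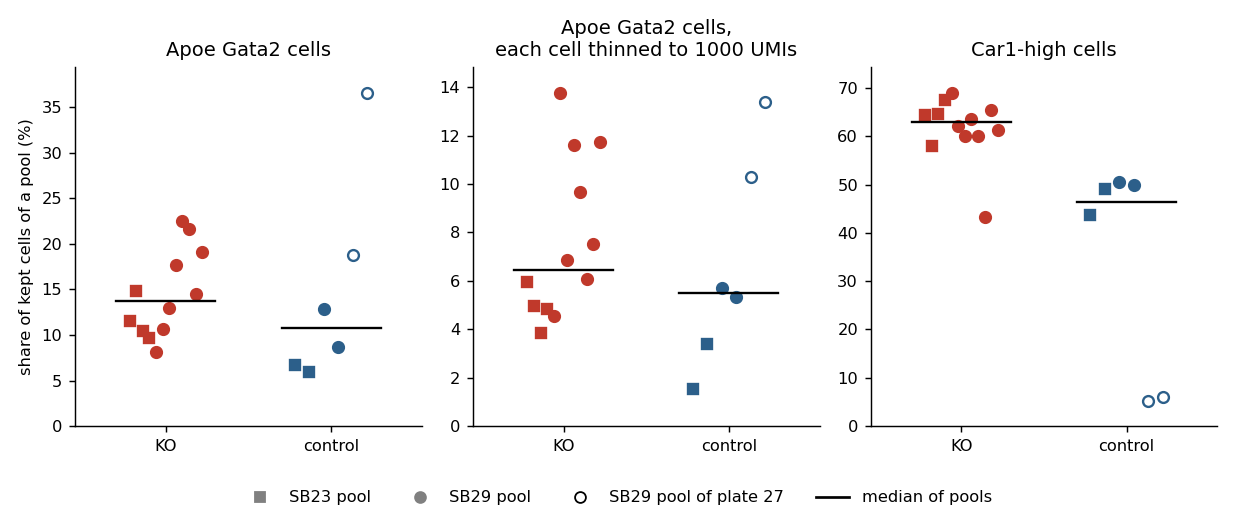
Share of kept cells (percent, vertical axis from 0) in each of 12 knockout pools (red, left) and 6 control pools (blue, right) for Apoe Gata2 cells, Apoe Gata2 cells after thinning to 1000 UMIs, and Car1-high cells; squares are SB23 pools, circles SB29 pools, open circles the pools of plate 27, and lines the medians. The plate 27 pools are the highest controls for Apoe Gata2 cells and the lowest for Car1-high cells.

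The pools of plate 27 thus carry both the control spread in the share of members, which runs up to 36.5%, and the lowest control shares of Car1-high cells in that plot.

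Within the members, 630 genes had enough UMIs to be tested (edgeR quasi-likelihood, batch as a term, Benjamini-Hochberg adjusted p under 0.05). In knockout members 50 were higher (7.94%) and 34 lower (5.4%), and 1 of the 50 was the gate gene Car1. The leading differences were higher Ifitm1, Ifitm3, Muc13, Txnip, Mfsd2b and Cbfa2t3 and lower Mpo, Prtn3, Ctsg, Calr, Lgals1 and Mt2. Without plate 27, 649 genes were tested, 18 were higher (2.77%) and 11 lower (1.69%). The difference in counts ran both ways: leaving out control plate 26 in place of plate 27 gave 144 higher and 117 lower, and leaving out both plates 14 and 27, so that plate 26 was the only control, gave 10 higher and 7 lower, with Ifitm3 and Muc13 each at a log2 fold change of 1.38 and not called. DESeq2 on all pools called 56 higher (8.89%) and 36 lower (5.71%), and UMIs summed per plate gave 25 higher (1.72%) and 12 lower (0.825%) of 1454. Of the 83 genes called outside the gate, 25 were called in the same direction without plate 27. With every pool and every plate left out in turn, 17 were called each time. The higher ones were Ifitm1, Ifitm3, Txnip, Mfsd2b, Muc13, Cbfa2t3, Zyx, Pnrc1, Nkg7 and AK152437. The lower ones were Mpo, Prtn3, Calr, Lgals1, Mt2, Cox6a1 and Fam132a. Leaving out 1 plate at a time never removes plates 14 and 27 together. Without both, 13 of the 83 were called again in the same direction. In SB29 without plate 27, Nkg7, AK152437, Zyx, Pnrc1, Cox6a1, Fam132a and Mt2 were not called. Only 8 tested genes (1.27%) had pool ranges that did not overlap between genotypes: Elf1, Muc13, Ifitm3, AK152437, Eef1a1, Calr, Cox6a1 and Atp5d. Without plate 27 the number was 14 (2.22%).

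Genes of the interferon response were among the groups with the most called members. Interferon-induced transmembrane proteins block the entry of viruses at membranes, and Ifitm1 and Ifitm3 also mark stem cells and early progenitors. Of 51 listed interferon-stimulated genes with a row in the table, 7 passed the filter, 4 rose (Ifitm1, Ifitm2, Ifitm3 and Psmb9) and 0 fell. Their median log2 fold change was 0.76, against -0.00 over all genes tested. Of all 630 genes tested, 7.94% were higher and 5.4% lower, and without plate 27 these shares were 2.77% and 1.69%. Without plate 27, 8 were tested and 2 rose (Ifitm1 and Ifitm3), with a median of 0.67.

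Ifitm1 ranged over 979, 2462 and 3392 CPM in knockout pools (lowest, median and highest), against 21.1, 407 and 1135 in control pools. Every knockout pool but the lowest exceeded the highest control pool, and the plate 27 pools were the lowest controls (21.1 and 127). The log2 fold change was 2.74 ± 0.46 (SE, edgeR adjusted p = 0.000382), and 2.07 ± 0.31 without plate 27 (adjusted p = 4.24e-05). Ifitm3 had 269, 409.5 and 879 CPM in knockout pools, against 0, 94.3 and 213 in control pools. The groups did not overlap for Ifitm3, with a log2 fold change of 2.28 ± 0.42 (edgeR adjusted p = 0.00104) and 1.58 ± 0.36 without plate 27 (adjusted p = 0.00486). Ifitm2 had 267, 473 and 875 in knockout pools, against 169, 297 and 638 in control pools. Its ranges overlapped, and its log2 fold change of 0.93 ± 0.28 (edgeR adjusted p = 0.0348) was 0.68 ± 0.30 and not called without plate 27 (adjusted p = 0.221). Psmb9, a subunit of the immunoproteasome, had 382, 508 and 714 CPM in knockout pools, against 158, 328 and 780.0 in control pools. Psmb9 had a log2 fold change of 0.76 ± 0.25 (edgeR adjusted p = 0.0458), and 0.58 ± 0.26 without plate 27 (adjusted p = 0.227).

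The other listed genes that were tested, Ly6e, Psmb8 and Psmb10, were not called. Ly6e, a lipid-anchored surface protein, had 2088, 2759 and 3792 CPM in knockout pools, against 42.2, 2436 and 3404 in control pools, with a log2 fold change of 0.06 ± 0.18 without plate 27. Psmb8 and Psmb10, further immunoproteasome subunits, had log2 fold changes of 0.24 ± 0.20 and 0.47 ± 0.23 in all pools. Among listed genes that did not pass the expression filter, Rtp4, a chaperone induced by interferon, had 37 UMIs in knockout members and 3 in control members, a log2 ratio of summed levels of 3.23 (95% counting interval 1.57 to 5.57), and 2.26 without plate 27 (0.598 to 4.60). Tap1, a peptide transporter, had 96 UMIs in knockout members and 76 in control members. The summed level of the list was 8714 to 14068 CPM in knockout pools and 2862 to 8651 in control pools. Without Ly6e, its most abundant gene, the ranges were 6107 to 10276 in the knockout and 2819 to 5247 in the control. Without the 4 called genes the ranges overlapped, at 5038 to 9232 in the knockout and 2503 to 6625 in the control.

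The 3 Ifitm genes lie side by side on mouse chromosome 7, and their promoters are shown because 2 of them hold letters of an interferon response element. Each line gives 250 bases before and 50 bases after the start of the gene, from RefSeq, build GRCm38.p6, read 5' to 3' on the strand of the gene: Ifitm1 at chr7:140967826-140968125 (plus strand), Ifitm2 at chr7:140955912-140956211 (minus) and Ifitm3 at chr7:141010695-141010994 (minus). Capitals mark each match to the motif GAAA, any 2 bases, GAAA, searched on both strands.
Ifitm1: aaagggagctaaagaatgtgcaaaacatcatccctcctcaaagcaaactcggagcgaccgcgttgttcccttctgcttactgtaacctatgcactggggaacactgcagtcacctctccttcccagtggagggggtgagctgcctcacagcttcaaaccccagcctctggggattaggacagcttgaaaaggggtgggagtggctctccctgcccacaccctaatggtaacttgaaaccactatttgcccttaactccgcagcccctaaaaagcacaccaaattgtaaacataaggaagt
Ifitm2: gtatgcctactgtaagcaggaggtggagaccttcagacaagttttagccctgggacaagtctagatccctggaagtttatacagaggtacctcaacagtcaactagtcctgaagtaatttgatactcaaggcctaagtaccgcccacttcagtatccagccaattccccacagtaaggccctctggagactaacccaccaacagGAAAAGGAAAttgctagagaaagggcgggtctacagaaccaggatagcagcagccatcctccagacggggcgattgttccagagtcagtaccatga
Ifitm3: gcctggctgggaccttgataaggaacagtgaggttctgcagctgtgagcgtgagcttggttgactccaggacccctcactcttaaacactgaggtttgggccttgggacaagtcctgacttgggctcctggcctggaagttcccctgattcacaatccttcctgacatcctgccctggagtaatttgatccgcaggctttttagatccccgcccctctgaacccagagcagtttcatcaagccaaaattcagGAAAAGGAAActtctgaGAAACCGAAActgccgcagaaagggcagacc

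The Ifitm2 promoter held 1 match, GAAAAGGAAA, from position -46 to -37 relative to the gene start. The Ifitm3 promoter held 2, GAAAAGGAAA at positions 3 to 12 and GAAACCGAAA at 20 to 29. The letters were not found in the Ifitm1 window, although Ifitm1 had the largest fold change of the 3 genes. Promoters of 38 genes called higher in knockout members in all pools could be matched by symbol, and 4 of them (10.5%) held this motif: H2-T22, Ifitm2, Ifitm3 and Pnrc1. It was found in 0 of 25 promoters of genes called lower, in 16 of 489 promoters of tested genes (3.27%) and in 943 of 27025 RefSeq promoters (3.49%). Among the listed interferon-stimulated genes 18 of 38 matched promoters held it. A C/EBP motif, TTGCNNAA on either strand, was found in 3 of 38 promoters of genes called higher (7.89%), 3 of 25 called lower (12.0%) and 36 of 489 tested (7.36%). The promoters of Mpo, Prtn3 and Ctsg held neither motif within these 300 bases.

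Genes of neutrophil primary granules were the largest decreases among the called genes. Of 5 tested members of the list, 3 fell (Mpo, Prtn3 and Ctsg) and 1 rose (Nkg7), with the same calls without plate 27. The median log2 fold change was -2.22. Among all tested genes 5.4% were lower and 7.94% higher. Mpo encodes myeloperoxidase, which makes hypochlorous acid in granules. It had 0, 382 and 1235 CPM in knockout pools, against 1189, 2176 and 2916 in control pools. A single knockout value reached into the control range, and that control pool was on plate 27. The log2 fold change of Mpo was -2.30 ± 0.35 (edgeR adjusted p = 0.000307), and -2.42 ± 0.32 without plate 27 (adjusted p = 1.03e-05). Prtn3, a granule serine protease, had 38.8, 199.6 and 800.2 CPM in knockout pools, against 784, 1179.7 and 1373 in control pools. This gave Prtn3 a log2 fold change of -2.22 ± 0.35 (edgeR adjusted p = 0.000328), and -2.37 ± 0.34 without plate 27 (adjusted p = 2.77e-05). Ctsg, cathepsin G, had 0, 39.1 and 381 in knockout pools, against 278, 482 and 932 in control pools. Ctsg thus had a log2 fold change of -2.73 ± 0.53 (edgeR adjusted p = 0.0014), and -2.82 ± 0.54 without plate 27 (adjusted p = 0.00158).

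Many control members, and not a few, carried these transcripts. After thinning to 1000 UMIs, 22.4% of 147 knockout members and 71.1% of 90 control members had an Mpo UMI (70.5% of 44 without plate 27). For Prtn3 the shares were 12.9% in the knockout and 54.4% in the control (59.1% without plate 27), and for Ctsg 6.12% in the knockout and 40.0% in the control (40.9%). Wells without a cell measure the free RNA of a pool: from their UMI totals and the pool's composition, background would supply 1.71% of the Mpo UMIs of knockout members and 6.47% of those of control members. For Prtn3 the same estimate was 1.35% in the knockout and 9.89% in the control. The empty wells themselves held 0 Mpo and 0 Prtn3 UMIs of 1225 in knockout pools, and 7 Mpo and 8 Prtn3 UMIs of 685 in control pools. Read from these few UMIs, background would supply 11.9% of the Mpo and 24.9% of the Prtn3 UMIs of control members. The same gate applied to unsorted wild-type progenitors of the series (210 cells of 16 pools) gave Mpo at 3622 CPM. In those wild-type cells Prtn3 (1391), Ctsg (790), Calr (2516), Lgals1 (847) and Ifitm1 (482) were also nearer the summed level of control members. Muc13 was nearer the knockout, at 446 CPM against 507 in knockout and 117 in control members. So were Cbfa2t3 (624, against 671 and 267), Ifitm3 (316, against 420 and 87.8) and Mt2 (350, against 225 and 1152). Which genotype departs from wild-type cells was not tested. Nkg7, a protein of cytotoxic and mast cell granules, rose, unlike Mpo, Prtn3 and Ctsg. It had 179, 395 and 629 CPM in knockout pools, against 0, 25.3 and 213 in control pools. Its log2 fold change was 2.35 ± 0.52 (edgeR adjusted p = 0.00503), and 1.63 ± 0.43 without plate 27. Both SB23 control pools had 0 Nkg7 UMIs. In SB29 it was not called, with a log2 fold change of 1.95, or 0.96 without plate 27. Nkg7 spanned 8.17-fold between plates of unsorted cells, and the part of plates in its difference was not tested. The monocyte side was sparse: Irf8, a transcription factor of monocytes and dendritic cells, had 2 UMIs in knockout members and 27 in control members.

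**Figure D3:**
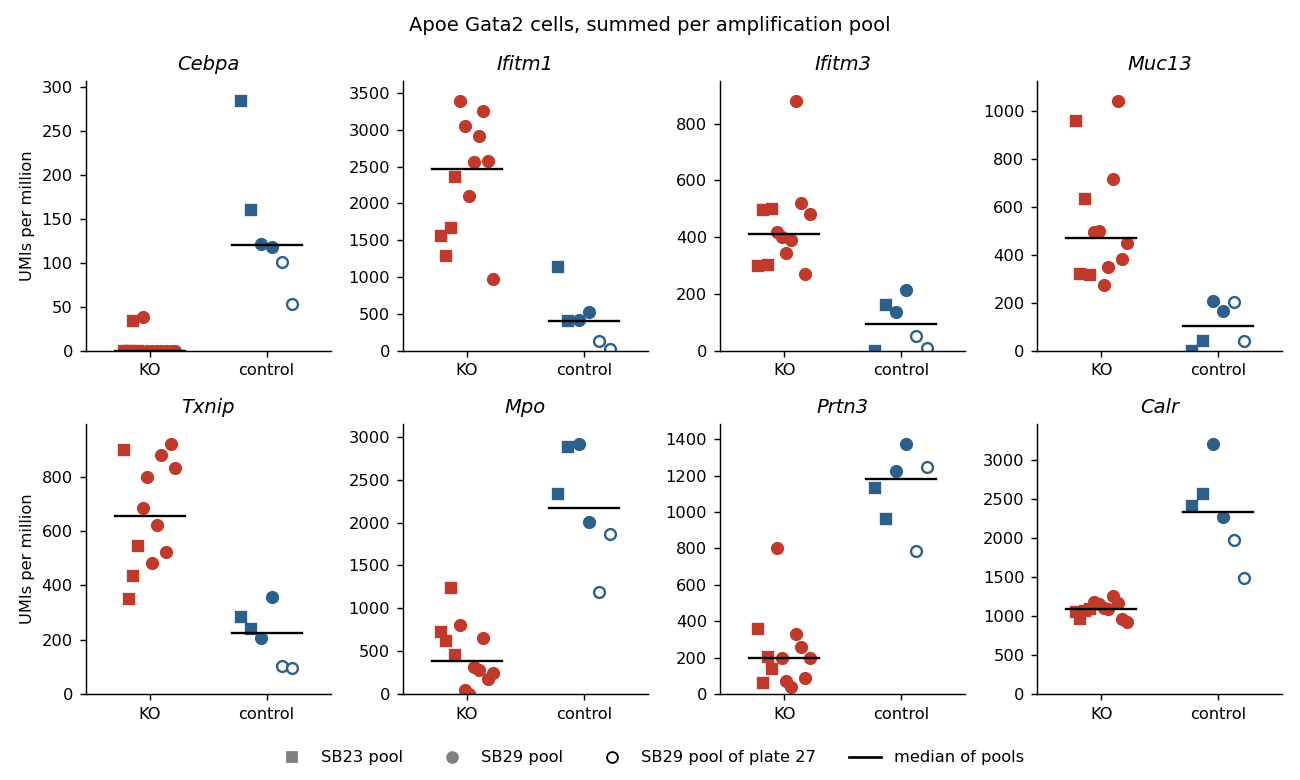
CPM (vertical axis, each panel from 0) of 8 genes summed over the Apoe Gata2 cells of each pool, 12 knockout pools at left in red and 6 control pools at right in blue; squares are SB23 pools, circles SB29 pools, open circles plate 27, and lines medians. Ifitm3, Muc13, Calr and Cebpa separate the genotypes, Mpo and Prtn3 overlap only at the edge, and Ifitm1 and Txnip are lowest in the plate 27 pools.

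The direction was the same in both batches for each gene in that plot. Calr, calreticulin, a calcium-binding chaperone of the endoplasmic reticulum, was among the decreases whose pools did not overlap. It had 929.5, 1088 and 1264 CPM in knockout pools, against 1489, 2342 and 3209 in control pools. For Calr the log2 fold change was -0.99 ± 0.16 (edgeR adjusted p = 0.000328), and -1.22 ± 0.15 without plate 27 (adjusted p = 3.84e-06). Lgals1, the secreted lectin galectin 1, had 76.2, 244 and 438 in knockout pools, against 359, 632 and 993 in control pools (log2 fold change -1.21 ± 0.29, edgeR adjusted p = 0.00924; -1.45 ± 0.29 without plate 27). Mt2, a metallothionein that binds zinc, had 55, 142 and 1099 in knockout pools, against 345, 1053 and 1806 in control pools. Its log2 fold change was -1.96 ± 0.44 (edgeR adjusted p = 0.00606), and -1.62 ± 0.46 without plate 27 (adjusted p = 0.0375). Mt1, its neighbour and near relative, had a log2 fold change of -1.20 ± 0.33 that was called in all pools and -0.69 ± 0.33 that was not called without plate 27. Cox6a1, a subunit of cytochrome c oxidase, had 714, 981 and 1305 in knockout pools, against 1328, 1747 and 2365 in control pools. The groups did not overlap for Cox6a1, and its log2 fold change was -0.75 ± 0.16 in all pools and -0.61 ± 0.18 without plate 27 (edgeR adjusted p = 0.00369 and 0.0435). Ppm1g, Snrpd2, Txn2, Uqcrq, Nme1 and Atp5g3, also among the 15 smallest p-values of the lower genes, fell by 0.70 to 0.98 on the log2 scale in all pools and were not called without plate 27.

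Of 5 tested genes in the list of early genes led by Apoe, 3 rose (Muc13, Spns2 and Zfpm1) and 0 fell; without plate 27, 2 rose (Muc13 and Zfpm1), and neither was called without plates 14 and 27. Among all tested genes 7.94% were higher, and 2.77% without plate 27. This list was assembled with earlier results of these cells known, so its direction is not independent evidence. Muc13, a membrane mucin, had 275, 472 and 1042 CPM in knockout pools, against 0, 104 and 207 in control pools. The groups did not overlap, with a log2 fold change of 2.20 ± 0.40 (edgeR adjusted p = 0.00104) and 1.95 ± 0.42 without plate 27 (adjusted p = 0.00327). Spns2, a transporter of sphingosine 1-phosphate, had 149.9, 406 and 968 in knockout pools, against 42.2, 209 and 284 in control pools. Its log2 fold change was 1.37 ± 0.36 (edgeR adjusted p = 0.0172), and 0.97 ± 0.35 without plate 27 (adjusted p = 0.125). Car2, a carbonic anhydrase and the most abundant gene of the list, was not called, with 1949, 2961 and 4809 in knockout pools, against 1113, 2032 and 3243 in control pools (log2 fold change 0.23 ± 0.18 without plate 27). F2r, the thrombin receptor PAR1, did not pass the expression filter and had 77 UMIs in knockout members and 8 in control members (3 without plate 27), a log2 ratio of 2.87 (95% counting interval 1.82 to 4.14). Slc22a3, an organic cation transporter, had 92 UMIs in knockout members and 10 in control members (8 without plate 27), a log2 ratio of 2.81 (1.86 to 3.92). With no expression filter edgeR called both higher in all pools (adjusted p = 0.000898 for F2r and 0.000703 for Slc22a3) and without plate 27 (0.00391 for F2r and 0.0405 for Slc22a3). Slc22a3 spanned 5.05-fold between plates of unsorted cells.

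Of 12 lineage transcription factors and cofactors tested, 3 rose (Cbfa2t3, Nfe2 and Zfpm1) and 0 fell, and 2 rose without plate 27 (Cbfa2t3 and Zfpm1). The share called higher over all tested genes was 7.94%, and 2.77% without plate 27. Cbfa2t3 encodes the corepressor ETO2, a partner of Tal1 and Gata1 in erythroid and megakaryocytic cells. It had 182, 654 and 989 CPM in knockout pools, against 142, 265 and 379.5 in control pools. Between genotypes this was a log2 fold change of 1.44 ± 0.28 (edgeR adjusted p = 0.00128), and 1.53 ± 0.32 without plate 27 (adjusted p = 0.00249). Zfpm1, the Gata1 cofactor FOG1, had 427, 693 and 879.7 in knockout pools, against 160.3, 439 and 665 in control pools. Its log2 fold change was 0.79 ± 0.24 (edgeR adjusted p = 0.0348), and 1.05 ± 0.27 without plate 27 (adjusted p = 0.015). Nfe2, a factor of platelet release and globin expression, had 195, 539 and 879 in knockout pools, against 213, 282 and 430.2 in control pools, and its log2 fold change of 0.81 ± 0.26 was called in all pools but not without plate 27 (edgeR adjusted p = 0.0434 and 0.0635). Myb, Myc, Stat5a, Runx1 and Klf1 were tested and not called, with log2 fold changes in all pools of 0.28 ± 0.28 for Myb, -0.03 ± 0.26 for Myc, 0.28 ± 0.27 for Stat5a, 0.33 ± 0.33 for Runx1 and -0.38 ± 0.26 for Klf1.

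The erythroid list was mixed. Of 8 tested members, 2 rose (Nfe2 and Zfpm1) and 1 fell (Blvrb), and without plate 27 only Zfpm1 was called. The shares over all tested genes were 7.94% higher and 5.4% lower. Blvrb, biliverdin reductase B, had 195, 458 and 726 CPM in knockout pools, against 355, 813 and 2017 in control pools, the highest of them on plate 27 (log2 fold change -0.98 ± 0.30, edgeR adjusted p = 0.0348; -0.36 ± 0.27 without plate 27, adjusted p = 0.49). Alpha globin Hba-a2 had 31 UMIs in knockout members and 197 in control members, of which 13 were outside plate 27. The summed erythroid level was 6563 to 10544 CPM in knockout pools and 6311 to 14720 in control pools. Of 2 tested heme synthesis genes 0 were called by edgeR, and Alad, an early enzyme of the path, had a log2 fold change of -0.81 ± 0.31 (adjusted p = 0.0793). The erythroid gene Mfsd2b, a sphingosine 1-phosphate exporter of red cells and platelets, was in no list and was among the 15 smallest p-values. It had 300.3, 621 and 1099 in knockout pools, against 169, 256 and 361 in control pools (log2 fold change 1.48 ± 0.25, edgeR adjusted p = 0.000409; 1.22 ± 0.27 without plate 27, adjusted p = 0.00486).

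Of 5 tested genes of stem and multipotent cells, 2 rose (Txnip and Gpr56), and only Txnip was called without plate 27. The share called higher over all tested genes was 7.94%, and 2.77% without plate 27. Txnip, an inhibitor of thioredoxin linked to quiescence in stem cells, had 350.0, 654 and 919 CPM in knockout pools, against 95, 224 and 355 in control pools. The ranges overlapped only at the edge, and the plate 27 pools were again the lowest. Its log2 fold change was 1.87 ± 0.30 (edgeR adjusted p = 0.000328), and 1.39 ± 0.29 without plate 27 (adjusted p = 0.00249). Gpr56, an adhesion receptor of stem cells, had 653, 1183 and 1635 in knockout pools, against 95, 713 and 983 in control pools (log2 fold change 1.14 ± 0.32, edgeR adjusted p = 0.0226; 0.63 ± 0.22 without plate 27, adjusted p = 0.114). Of 2 tested megakaryocyte and platelet genes, both rose. Zyx, the focal adhesion protein zyxin, had 378, 629.5 and 1034 in knockout pools, against 222, 333 and 496 in control pools. Zyx had a log2 fold change of 1.05 ± 0.24 (edgeR adjusted p = 0.00606), and 0.98 ± 0.27 without plate 27 (adjusted p = 0.0339). Nrgn, neurogranin, a calmodulin-binding protein also found in platelets, had a log2 fold change of 0.94 ± 0.31 in all pools and of 0.65 ± 0.31, not called, without plate 27.

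**Figure D4:**
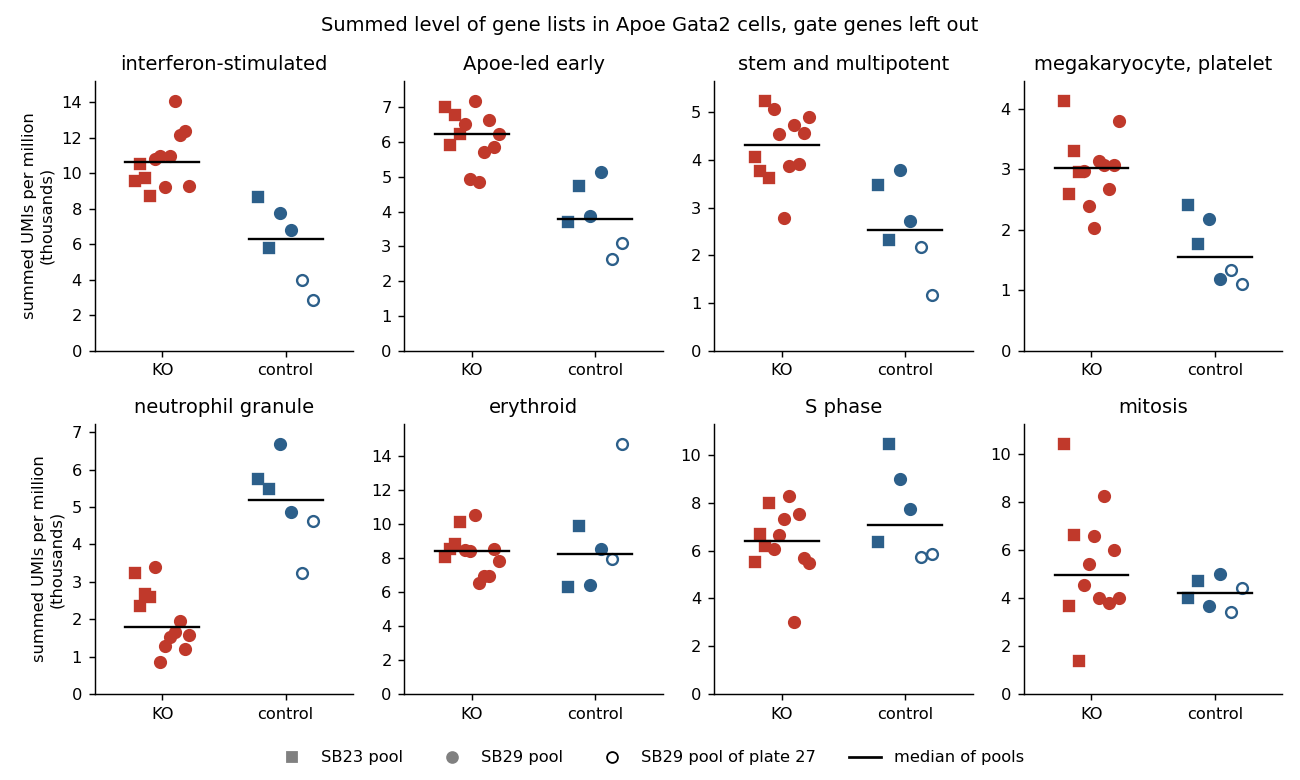
Summed level (CPM divided by 1000, vertical axis, each panel from 0) of 8 gene lists over the Apoe Gata2 cells of each pool, gate genes left out, 12 knockout pools at left in red and 6 control pools at right in blue; squares are SB23 pools, circles SB29 pools, open circles plate 27, and lines medians. The interferon-stimulated list does not overlap between genotypes when its called genes are included. The neutrophil granule list is lower in the knockout, and the erythroid, S phase and mitosis lists overlap widely.

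In that plot of list levels, the granule list summed to 850 to 3392 CPM in knockout pools and 3239 to 6677 in control pools, and the megakaryocyte and platelet list to 2026 to 4131 in the knockout and 1098 to 2411 in the control. Cell cycle lists did not separate the genotypes. For comparison, 7.94% of all tested genes were called higher and 5.4% lower. Of 8 tested S phase genes 0 were called in all pools by edgeR, and Mcm5, a subunit of the replicative helicase, was called lower without plate 27 (log2 fold change -1.13). Of 8 tested mitosis genes 1 rose, Mki67, a proliferation marker, with 45.4, 332 and 868 CPM in knockout pools, against 21.1, 131 and 189 in control pools (log2 fold change 1.78 ± 0.46, edgeR adjusted p = 0.0134; 1.22 ± 0.43 without plate 27, adjusted p = 0.114). The only tested gene of the monocyte and dendritic list, Cst3, the protease inhibitor cystatin C, had a log2 fold change of -0.46 ± 0.17 (edgeR adjusted p = 0.0731). Immediate early genes, MHC class II genes, cytokine receptors, eosinophil genes and genes of other marrow cells had 0 members tested in all pools.

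The remaining leading genes were Elf1, Mir703, AK152437, Serpina3f;Serpina3g, Akap13, Rpl37 and Rpl23. Elf1, an ETS transcription factor, had 219.8, 311 and 651 CPM in knockout pools, against 0, 17.9 and 71.0 in control pools (log2 fold change 3.32 ± 0.47, edgeR adjusted p = 0.000161; 2.77 ± 0.51 without plate 27, adjusted p = 0.0009). Elf1 was low on control plates 14 and 27 over all kept cells and spanned 5.46-fold between plates of unsorted cells. Mir703, a row named for a microRNA gene, and Rpl23 spanned 9.39-fold and 8.82-fold on those plates. The row Serpina3f;Serpina3g joins near-identical protease inhibitor genes and cannot be given to either; its log2 fold change was 2.11 ± 0.41 (edgeR adjusted p = 0.00141) and 1.76 ± 0.41 without plate 27.

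By size alone, with no test, 2666 genes had at least 100 CPM in a genotype. Of these, 299 were at least 2-fold higher in knockout members (11.2%) and 153 at least 2-fold lower (5.74%). Without plate 27, 151 of 2752 were higher (5.49%) and 145 lower (5.27%). The interferon-stimulated list had 15 such genes, of which 7 were higher and 0 lower; without plate 27, 4 were higher. Among basophil and mast cell genes, Scin, the actin-severing protein scinderin, had 113 UMIs in knockout members and 6 in control members (5 without plate 27), and Gzmb, granzyme B, had 46 in knockout members and 1 in control members, outside plate 27. The same list held Lmo4, a LIM-domain cofactor, with 35 UMIs in knockout members and 124 in control members (103 without plate 27), and Hdc, the histamine-forming enzyme, with 3 in knockout members and 36 in control members (29 without plate 27). The list thus held differences in both directions, and its mast cell markers Cpa3, Ms4a2 and Fcer1a had at most 2 UMIs in either genotype.

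The batches share no pool, and all SB29 pools gave 37 genes higher (4.68%) and 17 lower (2.15%) of 790. Because no pool is shared, a gene called in either can be read in the other. In SB29 without plate 27, 738 genes were tested, 15 were higher (2.03%) and 5 lower (0.678%). Of these 20 genes 16 were tested in SB23, 14 had the same direction there (87.5%), and 5 were called there. Over all 547 genes tested in both, 61.1% had the same direction. Hist1h1a and Lpin2 had the other direction. The SB23 pools alone gave 23 genes higher (3.62%) and 4 lower (0.629%) of 636. Of the 23 of these tested in SB29 without plate 27, 16 had the same direction there (69.6%). Ifitm1 had a log2 fold change of 2.48 in SB29 without plate 27 and 1.40 in SB23, Mpo -3.03 in SB29 and -1.64 in SB23, and Calr -1.29 in SB29 and -1.12 in SB23. The interferon list had 0 members called by edgeR in SB23, where Psmb9 had a log2 fold change of -0.092.

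**Figure D5:**
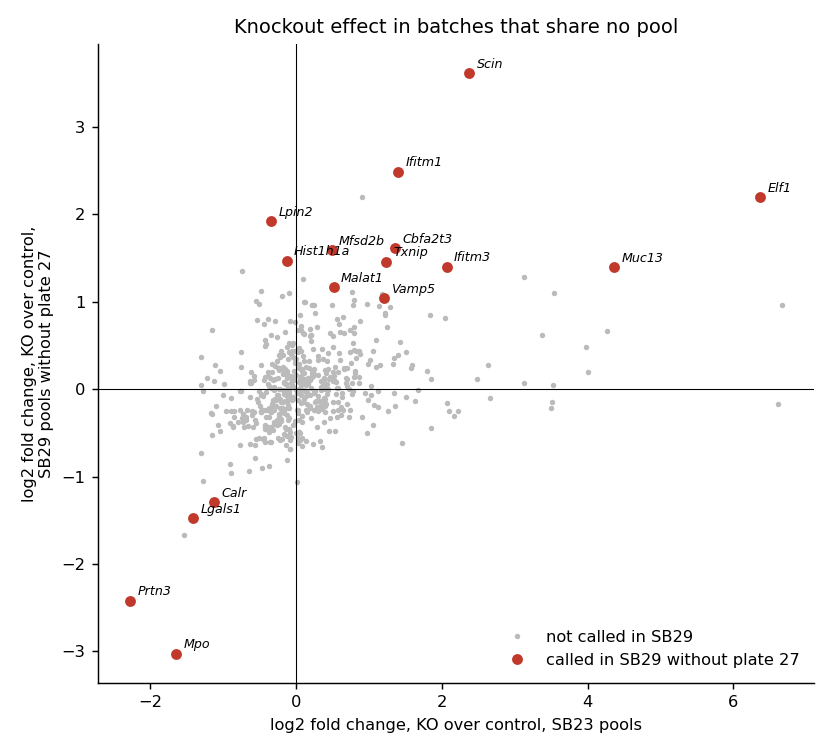
Log2 fold change of knockout over control in SB29 pools without plate 27 (vertical axis) against that in SB23 pools (horizontal axis) for the 547 genes tested in both; grey points were not called in SB29 and the 16 red, named points were. Of the red points 14 lie on the same side of 0 in both batches, with Mpo and Prtn3 low in both and Scin and Muc13 high in both.

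The plot of both batches therefore shows the leading genes in pools that share no library, though all knockout pools of both batches carry the same mouse identifier and so do all control pools. Each axis also rests on 1 control plate: plate 14 for SB23 and plate 26 for SB29 without plate 27. Plate 14 is among the control plates with low Eef1a1 (540 CPM) and Rpl23 (346 CPM) over all kept cells.

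Car1-high cells of the same 18 pools, which are erythroid progenitors by their Car1 level, allow a test of whether the difference is larger in the members. Of 1994 genes tested for the interaction of cell class and genotype with pool as a block, 0 were higher and 1 was lower by edgeR (0.0502%), and 196 had an unadjusted p under 0.05. The 1 gene was Lmo4. Its interaction was -2.58 ± 0.53 on the log2 scale (edgeR adjusted p = 0.0117), and -2.80 without plate 27. Lmo4 was not called when SB23 control pool 1 was left out. Without plate 27 Calr was also called, with an interaction of -0.96 (adjusted p = 0.000515). In Car1-high cells themselves 250 of 4887 tested genes were higher (5.12%) and 86 lower (1.76%), or 252 (4.59%) and 112 (2.04%) of 5489 without plate 27. Several leading genes of the members were called there too: the log2 fold change was 3.08 for Ifitm1, 1.37 for Ifitm3, 1.11 for Txnip, -2.77 for Mpo and -2.82 for Ctsg (edgeR adjusted p at most 2.87e-06 for each). Others were not called in Car1-high cells, with log2 fold changes of -0.23 for Lgals1 (adjusted p = 0.504), -0.21 for Cox6a1 (0.14) and 0.017 for Zfpm1 (0.974). Mfsd2b had 0.32 there, not called, with an interaction of 1.12 (adjusted p = 0.163). No difference in effect between the cell classes was shown for these genes.

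Shares of members with a UMI, read at 1000 UMIs per cell in 147 knockout and 90 control members, showed how many cells carried each difference. An Ifitm1 UMI was found in 59.9% of knockout members and 13.3% of control members (22.7% of 44 without plate 27). For Txnip the shares were 47.6% in the knockout and 15.6% in the control (27.3% without plate 27). For Muc13 they were 36.7% in the knockout and 12.2% in the control (11.4%), and for Ifitm3 35.4% in the knockout and 6.67% in the control (9.09%). A Calr UMI was found in 62.6% of knockout members and 76.7% of control members (84.1% without plate 27). In SB23, where cells were index-sorted, the authors' table also gives the fluorescence intensity of surface antibodies. FcgR, the receptor that marks granulocyte and monocyte progenitors, had pool medians of 187 to 640 in the 4 knockout pools and 896 to 949.5 in the 2 control pools. CD34, a marker of early progenitors, had pool medians of 136.5 to 256 in the knockout and 272 to 354.5 in the control. For both antibodies the pools did not overlap, with p = 0.0667 by exact permutation, the smallest that 15 arrangements allow. Car1-high cells of SB23 went the other way. Their median over cells was 146 in the knockout and 68.5 in the control for FcgR, and 90 and 83 for CD34.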

How the data were processed

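Bone marrow progenitors were profiled by MARS-seq, and the values used are UMI counts per gene and well, from the authors' deposited table of all wells of the series. The mouse build mm9 and bcl2fastq 2.15.0.4 are named per the submitters' processing notes, with the aligner not given in the sources used here. A table deposited by the authors gives each well its pool, batch, description and, in SB23, the fluorescence intensity of CD34 and FcgR, used as given and of unstated scaling. Pools were grouped by that table. The members, the gene lists and the rule for naming genes were chosen with earlier results of these data known. The list of early genes led by Apoe was drawn up with such results in view.

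Wells with 1 cell and at least 500 UMIs were kept, the gate was applied to each cell, and UMIs were summed per pool (at least 5 members). Genes were tested with edgeR 4.0.16 (R 4.3.3; filterByExpr, TMM, quasi-likelihood, batch and genotype as terms), with Benjamini-Hochberg adjustment over all genes tested and a threshold of 0.05. DESeq2 1.42.0 was an alternative. Single values were compared by exact two-sided permutation of genotype within batches. A total of 27297 gene rows was used, of which 2109 join several symbols and are uncertain; 83 of the joined rows were tested. On simulated counts with 200 changed genes the test recovered 87.5% of 2-fold changes in all pools (582 genes) and 76.3% without plate 27 (594 genes). The simulated pools were drawn independently, with no shift shared by the pools of a plate or batch. Real pools do share such shifts, so these rates are not the power of the test in these data. The genes named were the 15 smallest p-values in each direction, every called list member, and from each list some uncalled members with the highest mean CPM. Genes by size had at least 100 CPM and a 2-fold difference. Other genes named for size, Irf8, Tap1, Hdc and Gzmb among them, and the genes called in 1 alternative were chosen after their values were seen. Intervals are exact at 95% and cover counting error only. Pools of 1 genotype and batch all differed by more than sampling noise, and each was counted.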

Additional observations from a re-analysis of the deposited data

Results flagged for a closer look

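The knockout difference of Lmo4 was not the same in Apoe Gata2 cells and in Car1-high cells of the same pools, which is the only result that met a rule for a closer look. Summed over the members of a pool, Lmo4 had a lowest value of 0, a median of 83.4 and a highest of 267 CPM in knockout pools, against 106, 493 and 1844 CPM in control pools. In Car1-high cells it averaged 23.7 CPM in knockout pools and 38.5 CPM in control pools. The difference between both log2 fold changes was -2.58 ± 0.53 (SE, edgeR quasi-likelihood with pool as a block, adjusted p = 0.0117 over 1994 genes). It was -2.80 without plate 27 and was not called in SB29 alone, where 0 genes were. The call was also lost without SB23 control pool 1, where 0 of 2093 genes were called. That pool held the highest Lmo4 value, from 26 UMIs in 11 members. Dixon's test, which flags about 1 in 20 groups by chance, was applied to 32 values over the 6 control pools and marked 0 of them.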

How the results depend on the processing

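Against 50 genes higher and 34 lower in all pools, the counts were 23 and 4 in SB23 alone, 15 and 5 in SB29 without plate 27, 24 and 22 with at least 10 members per pool, 5 and 7 with the gate read after thinning, 25 and 12 with UMIs summed per plate and 10 and 7 without plates 14 and 27. The limit of 2 UMIs of Apoe and Gata2 gave 89 and 53, that of 4 UMIs gave 31 higher, SB29 alone gave 17 lower, no expression filter gave 95 lower and the GEO labels in place of the authors' table gave 22 lower. Leaving out the control pools whose strain label names Mx1-Cre, which are those of plate 26, gave 144 and 117. Without plate 27 the counts were 17 and 11 with RLE factors, 17 and 12 with no scaling, 23 and 20 with no filter and 18 and 8 with DESeq2. Leaving out each pool gave 28 to 91 higher and 12 to 67 lower, and each plate 18 to 144 higher and 11 to 117 lower, with plate 27 lowest and plate 26 highest; plates 12, 22, 24 and 25 also moved both counts by over 1.5 times. By size, SB23 alone gave 500 higher and 625 lower, and all pools without plate 27 gave 151 higher. The interaction gave 0 genes in SB29 alone, 0 to 4 without each pool and 2 without plate 27. The cause was not tested in any of these.

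The difference in the share of members, -0.44 percentage points in all pools, reversed to 1.87 with at least 1000 UMIs per cell, 1.00 after thinning and 5.26 in SB23. Leaving out each pool gave -2.23 to 3.54 points and each plate -4.02 to 5.22, with 0.374 without SB29 knockout pool 1, 0.137 without SB29 knockout pool 2 and 1.15 without plate 22. Among 39 called genes with values here, Psmb9 reversed in SB23 (-0.092). DESeq2 and RLE factors left all 39 called, and leaving out plate 27 left 22. No paired analysis was possible because the pool numbers are given in order within a group and pair no pools. With 1 animal identifier per genotype and 8 to 42 members per pool, 630 of the 11164 genes with a UMI passed the expression filter.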
